A study of Rattus norvegicus with 12 samples.

Results

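The signals described here are those of 10 genes for cytosolic aminoacyl-tRNA synthetases, Aars1, Cars1, Gars1, Sars1, Nars1, Mars1, Iars1, Eprs1, Wars1 and Rars1, in rat liver cells cultured with or without arginine. A probe set was taken when the array's annotation gave it a single gene symbol and that symbol was one of the 10, with the older form of the name accepted. This gave 13 of the 15923 probe sets on the array and 10 of the 10412 genes that carry a single symbol. Cars1 had 3 probe sets, Iars1 had 2 and the other genes had 1 each.

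RNA was compared between normal cells, the diploid hepatic epithelial line WB-F344 isolated from a male adult of the Fischer-344 strain, and tumor cells, the line GP7TB, which was derived from clonal subpopulations of WB-F344 after repeated exposure to N-methyl-N-Nitro-N-nitrosoguanidine and forms tumors in rats. Both lines were held for 18 hours in Chee's Essential Medium with 5% fetal bovine serum in every group. The arginine-sufficient medium held L-arginine HCl at 0.168 g/l and none was added to the arginine-deficient medium. By the account of the study the serum was not dialyzed, so this medium may still have held some arginine. Each of the 4 groups (normal or tumor cells, arginine-sufficient or arginine-deficient) had 3 arrays from 3 experiments, 12 arrays in all, and each experiment gave 1 arginine-sufficient and 1 arginine-deficient culture of a line. Each cell type is a single line, so a difference between normal and tumor cells is a difference between these lines. All tumor arrays were scanned on 1 day, which held no normal array, and no chip lot held arrays of both lines. The cell line thus cannot be told apart from scan day or chip lot. Krt8 and Vim, markers of liver epithelial lines, lay above the threshold for expression on 6 of 6 arrays of each line, while Krt18 and Krt19 did on 0. Of the hepatocyte markers Alb and Ttr were above it on 2 tumor arrays each and otherwise on 0, the immune marker Lyz2 was on 2 tumor arrays, and the remaining hepatocyte, immune and endothelial markers were on 0. The 3' to 5' ratio of the Gapdh probe sets, which reflects how intact the RNA was, ranged from 0.998 to 1.38. In 6 of 6 pairs the arginine-deficient culture had the higher Gapdh ratio, while for the same ratio of Actb, which ranged from 0.9995 to 1.63, this held in 2 of 6 pairs. Their part in the results below was not tested.

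Aminoacyl-tRNA synthetases join each amino acid to its own tRNA, the step that supplies charged tRNA to the ribosome. When an amino acid is short, uncharged tRNA accumulates and activates the kinase GCN2 (Eif2ak4), which phosphorylates eIF2, slows general translation and raises translation of the transcription factor ATF4. ATF4 binds, with C/EBP partners, a composite DNA element in the promoters of genes for amino acid synthesis, transport and tRNA charging, among them several of the synthetases. In the cell Mars1, Iars1, Eprs1 and Rars1 products sit in a large multi-synthetase complex, while those of Aars1, Cars1, Gars1, Nars1, Sars1 and Wars1 act outside it.

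The core of that composite element, TGATGNAA, was searched on both strands of the RefSeq promoter windows of build GRCr8, each of 300 bases with 250 before and 50 from the gene's start. It was present in 3.98% of the 33469 windows, and in 4.16% of the 27457 genes with a window. Of the 10 synthetase genes 8 had a window, and 5 of these held a match: Aars1, Cars1, Iars1, Mars1 and Nars1. Matches are shown as a sequence that these 5 members have in common. The choice of genes did not use sequence, but it was made with earlier results of these data known. The share of members with a match may thus not be independent of that choice. Each line gives 30 bases, 5′ to 3′ on the strand of the gene, with the match in capitals. A match in the reverse direction reads as TTNCATCA. Distances run from the gene's start to the first base of the match, with bases before the start negative, and a match with a positive distance lies in the transcribed region.
Aars1, chr19:55908480-55908509, plus strand, distance 9: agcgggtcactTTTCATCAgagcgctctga
Cars1, chr1:208225334-208225363, minus strand, distance 17: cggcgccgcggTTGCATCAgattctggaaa
Iars1, chr17:15193658-15193687, minus strand, distance -24: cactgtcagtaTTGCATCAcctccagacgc
Mars1, chr7:65023752-65023781, minus strand, distance -17: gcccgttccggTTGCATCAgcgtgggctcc
Nars1, chr18:60275778-60275807, minus strand, distance -14: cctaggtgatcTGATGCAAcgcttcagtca
In Iars1, Mars1 and Nars1 the match began within 24 bases before the start. Nars1 alone carried it in the forward direction. The windows of Eprs1, Sars1 and Wars1 had no match, which says only that these letters are not in these windows. Gars1 and Rars1 were not matched to a window.

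For comparison, 14 genes of the GCN2 and ATF4 pathway list had a window. Chac1 and Trib3, stress response genes known as targets of ATF4, were the 2 of these 14 genes with a match, which is shown in the same way. The others had none.
Chac1, chr3:126795953-126795982, plus strand, distance -167: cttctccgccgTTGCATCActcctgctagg
Trib3, chr3:161275536-161275565, minus strand, distance -21: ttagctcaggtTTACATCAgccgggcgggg
Among other cytosolic synthetases 2 of 10 genes with a window held a match (Tars1 and Yars1). It was found in 0 of 3 genes for the scaffold proteins of the complex and in 0 of 16 mitochondrial synthetase genes with a window.

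Levels below are given as linear Microarray Suite 5.0 signals, and changes as differences of their log2. A signal of 1 probe set is not comparable with that of another, so genes are compared by their changes alone. As the arrays were scaled to a common mean and hold pooled RNA of a culture, less RNA per cell and fewer cells of a kind cannot be told apart. Of the 13 probe sets 12 passed the filter on low signals, and 1 of the 2 for Iars1 (1386583_at) did not, with signals of 28.7 to 122 on the 12 arrays. Tests were made with limma over 9745 probe sets, with Benjamini-Hochberg adjusted p-values, and a gene was counted on its probe set with the highest mean signal.

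Arginine deprivation was followed by a higher mean signal for all 10 genes in both cell types. In tumor cells Sars1, Eprs1, Aars1 and Wars1 rose by 1.98-fold to 2.57-fold and passed the test, and in normal cells the fold changes of the 10 genes were 1.23 to 1.69 and 0 genes passed. The background for these counts was low: 0.959% of 7192 genes tested were called higher in arginine-deficient tumor cells and 0.111% in normal cells. The 10 genes were chosen with earlier results of these data known. Gaps between them and all genes, here and below, are therefore no separate result. The median log2 change of the 10 genes was 0.94 in tumor cells and 0.67 in normal cells, beside medians over all genes tested of -0.04 in both. At an unadjusted p under 0.05 there were 10 of 10 genes in tumor cells and 8 of 10 in normal cells, beside 1491 and 920 of all 9745 probe sets, in either direction. With the experiment as a block, a fit described below, 10 genes passed in tumor cells and 6 in normal cells.

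**Figure D1:**
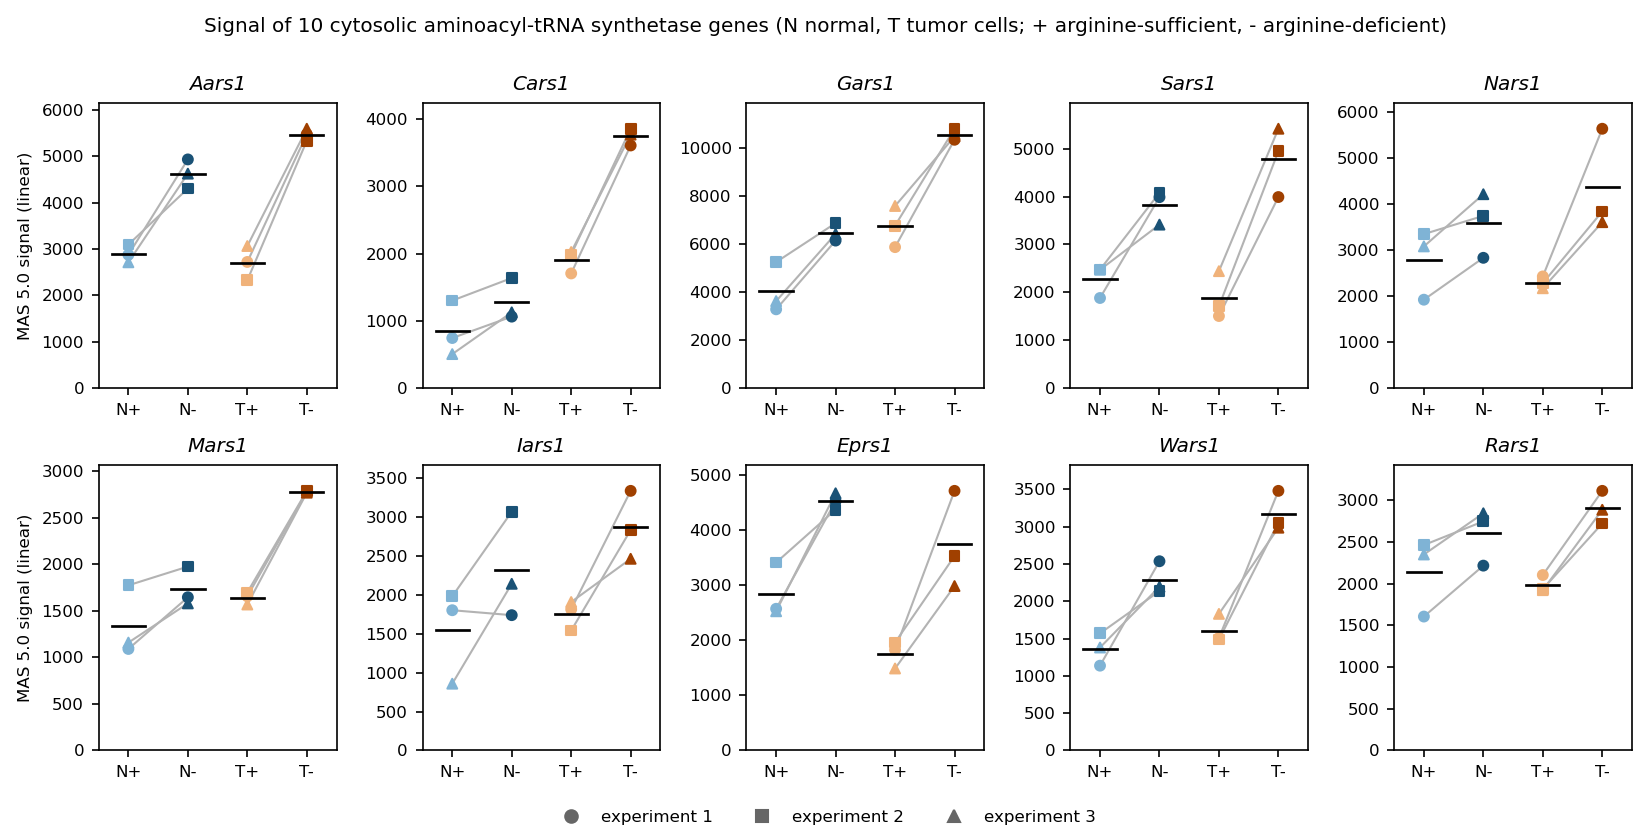
Signal of the leading probe set of each of the 10 genes (linear scale, own axis for each gene, starting at 0) on the 12 arrays, for normal (N) and tumor (T) cells with (+) and without (-) arginine. Symbols mark the 3 experiments, grey lines join the 2 cultures of an experiment, and black bars are group means. In tumor cells every arginine-deficient array of a gene lies above every arginine-sufficient array.

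Sars1 codes for the seryl-tRNA synthetase, which also charges the tRNA for selenocysteine. Its signals in tumor cells were 1508, 1709 and 2443 with arginine and 3989, 4945 and 5414 without it, in the order of experiments 1, 2 and 3. In normal cells they were 1884, 2476 and 2472 with arginine and 3987, 4077 and 3414 without. In both lines the lowest arginine-deficient array was above the highest arginine-sufficient one. The log2 change in tumor cells was 1.36 ± 0.20 (SE, n = 3 arrays per group, limma adjusted p = 0.00515), the highest of the 10 genes. In normal cells it was 0.76 ± 0.20 (limma adjusted p = 0.213, 0.018 with the block). Sars1 was the 1 gene of the 10 to meet a 2-fold concordance rule that the study applied, which asks for a change of at least 2-fold in at least 6 of the 9 ratios between arginine-deficient and arginine-sufficient arrays. It did so in 8 of 9 ratios in tumor cells and in 2 of 9 in normal cells, where 0 of the 10 genes met the rule. Over all genes tested the rule was met for an increase by 1.08% in tumor cells and 0.695% in normal cells.

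Aars1, the alanyl-tRNA synthetase gene, had the smallest standard error of the genes that passed. Its signals in tumor cells were 2721, 2327 and 3064 with arginine and 5471, 5330 and 5589 without it. In normal cells they were 2877, 3095 and 2713 with arginine and 4929, 4302 and 4623 without. The groups with and without arginine stood apart in both lines. The log2 change was 1.02 ± 0.14 in tumor cells (limma adjusted p = 0.00438) and 0.67 ± 0.14 in normal cells (limma adjusted p = 0.115, 0.0168 with the block). Of the 4 genes that passed in tumor cells, Aars1 was the one with a match to the composite element in its window.

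Wars1, for the tryptophanyl-tRNA synthetase, is also known as a gene induced by interferon. Tumor arrays gave 1506, 1485 and 1830 with arginine and 3479, 3053 and 2985 without it, and normal arrays gave 1136, 1569 and 1379 with arginine and 2536, 2136 and 2194 without. Again the groups with and without arginine did not overlap in either line. Its log2 change came to 0.98 ± 0.17 in tumor cells (limma adjusted p = 0.0131) and 0.76 ± 0.17 in normal cells (limma adjusted p = 0.115, 0.0295 with the block).

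Eprs1 codes for the bifunctional enzyme that charges the tRNAs for glutamate and proline. Of the 4 described genes in the multi-synthetase complex, Eprs1 was the one that passed the test in tumor cells. Its signals in tumor cells were 1823, 1956 and 1485 with arginine and 4706, 3524 and 2980 without it, so that experiment 1 had the widest gap. In normal cells they were 2568, 3407 and 2523 with arginine, with experiment 2 highest, and 4518, 4366 and 4663 without. The groups with and without arginine did not overlap in either line. On the log2 scale the change was 1.07 ± 0.19 in tumor cells (limma adjusted p = 0.0145) and 0.69 ± 0.19 in normal cells (limma adjusted p = 0.262, 0.0315 with the block).

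The calls in tumor cells depended on single arrays. Without the tumor arginine-sufficient array of experiment 1, 2 genes remained called, Aars1 and Sars1, as Eprs1 had an adjusted p of 0.0535 and Wars1 one of 0.0576 by limma. Without the tumor arginine-deficient array of experiment 2 the count was 2 as well, with 0.0685 for Eprs1 and 0.0647 for Wars1. Without the normal arginine-sufficient array of experiment 2, which stands alone on its chip lot and scan day, 7 genes passed in tumor cells and 1, Gars1, in normal cells (limma adjusted p = 0.0292). Without the tumor arginine-sufficient array of experiment 2, Wars1 lost its call (limma adjusted p = 0.0698). The normal arginine-sufficient array of experiment 2 was the highest of its group for 10 of the 10 genes.

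The study describes its experiments as pair-wise, and a fit with the experiment as a block called more genes. With the block 10 of the 10 genes passed in tumor cells, where 5.2% of all genes were called higher, and 6 of 10 in normal cells (Aars1, Cars1, Eprs1, Gars1, Sars1 and Wars1), where 1.38% were. The blocked limma adjusted p was 0.000236 to 0.0484 for the 10 genes in tumor cells, with Sars1 lowest and Iars1 highest, and 0.0168 to 0.0473 for the 6 in normal cells. In fits added after the data were seen, leaving out 1 tumor experiment left 7 or 8 genes in tumor cells, and Iars1 and Rars1 were lost each time. Leaving out experiment 1 of normal cells left 0 genes in normal cells, leaving out experiment 3 left 1, Sars1, and leaving out experiment 2 left 6.

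Cars1, for the cysteinyl-tRNA synthetase, was read by 3 probe sets. The leading one, 1374034_at, gave 1706, 1985 and 2024 in tumor cells with arginine and 3605, 3854 and 3766 without it. In normal cells it gave 747, 1303 and 508 with arginine and 1064, 1637 and 1128 without. These normal groups overlapped, as the arginine-sufficient array of experiment 2 lay above 2 of the arginine-deficient arrays, although the signal was higher without arginine within each experiment. This probe set had a log2 change of 0.98 ± 0.28 in tumor cells (limma adjusted p = 0.0926, 0.00265 with the block) and 0.66 ± 0.28 in normal cells (0.461, 0.0473 with the block). The other Cars1 probe sets had log2 changes of 0.95 ± 0.22 (1376754_at, limma adjusted p = 0.0488) and 0.94 ± 0.24 (1391572_at, 0.0641) in tumor cells, and of 0.40 and 0.36 in normal cells, where neither passed with the block (limma adjusted p = 0.21 and 0.263). The blocked call of Cars1 in normal cells thus rests on 1 of its 3 probe sets. The 3 therefore lay within 0.04 of each other in tumor cells, on either side of the threshold.

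Gars1, for the glycyl-tRNA synthetase, was the gene whose change was not larger in tumor cells. Its signals in normal cells were 3281, 5243 and 3622 with arginine and 6136, 6861 and 6413 without it, and in tumor cells 5864, 6757 and 7572 with arginine and 10323, 10781 and 10462 without. Both lines had groups that stood apart, and the 3 arginine-deficient arrays of tumor cells were close together. For Gars1 the log2 change was 0.71 ± 0.17 in normal cells (limma adjusted p = 0.168, 0.017 with the block) and 0.65 ± 0.17 in tumor cells (0.0738, 0.00763 with the block).

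Nars1, for the asparaginyl-tRNA synthetase, gave 2426, 2280 and 2169 in tumor cells with arginine and 5627, 3834 and 3601 without it, with experiment 1 far above the other two. In normal cells it gave 1921, 3343 and 3076 with arginine and 2829, 3738 and 4208 without, and these groups overlapped. Its log2 change was 0.90 ± 0.23 in tumor cells (limma adjusted p = 0.0659, 0.00188 with the block) and 0.39 ± 0.23 in normal cells (0.643, 0.139 with the block).

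Mars1, for the methionyl-tRNA synthetase that also charges the initiator tRNA, had the smallest spread of the 10 genes in tumor cells, relative to its mean. Its signals there were 1657, 1699 and 1569 with arginine and 2781, 2791 and 2771 without it. Normal cells gave 1091, 1775 and 1160 with arginine and 1647, 1977 and 1581 without, with overlap through the arginine-sufficient array of experiment 2. The log2 change was 0.76 ± 0.18 in tumor cells (limma adjusted p = 0.0523, 0.0033 with the block) and 0.40 ± 0.18 in normal cells (0.527, 0.113 with the block).

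Iars1, for the isoleucyl-tRNA synthetase, was the least regular member. Its signals in normal cells were 1804, 1983 and 858 with arginine and 1740, 3070 and 2143 without it. In experiment 1 the arginine-deficient array was slightly lower, a ratio of 0.965, and in experiment 3 it was 2.5 times as high. Tumor cells gave 1815, 1542 and 1909 with arginine and 3339, 2836 and 2465 without, groups that did not overlap. The log2 change was 0.71 ± 0.29 in tumor cells (limma adjusted p = 0.25, 0.0484 with the block) and 0.63 ± 0.29 in normal cells (0.52, 0.127 with the block).

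Rars1 codes for the arginyl-tRNA synthetase, the enzyme that charges the amino acid left out of the medium, and its change was the smallest of the 10 in both lines. Tumor arrays gave 2105, 1937 and 1923 with arginine and 3115, 2724 and 2888 without it, which did not overlap. Normal arrays gave 1607, 2465 and 2351 with arginine and 2218, 2749 and 2846 without, which did. The log2 change was 0.55 ± 0.18 in tumor cells (limma adjusted p = 0.144, 0.0119 with the block) and 0.30 ± 0.18 in normal cells (0.643, 0.19 with the block). The order of the members by size of change was not tested.

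In tumor cells the groups with and without arginine did not overlap for 10 of the 10 genes, where 10.2% of all genes had every arginine-deficient array above every arginine-sufficient one. In normal cells this held for 5 of 10 (Aars1, Eprs1, Gars1, Sars1 and Wars1), against 6.15% of all genes. Within experiments the median log2 change of the 10 genes was 1.04, 0.86 and 0.78 in tumor experiments 1, 2 and 3, and 0.69, 0.37 and 0.72 in normal experiments 1, 2 and 3. Of these 6 sets of 10 changes the one value below 0 was that of Iars1 in normal experiment 1. Rars1 or Iars1 had the lowest change in 5 of the 6 experiments (Mars1 did in normal experiment 2), and Sars1 had the highest in each tumor experiment. Within scan days and chip lots that held both conditions, the median was 0.72 to 0.82 in normal cells and 0.83 to 1.17 in tumor cells, with 10 of 10 genes above 0 in each. One normal scan day and lot held the arginine-sufficient array of experiment 2 alone and gave no value.

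**Figure D2:**
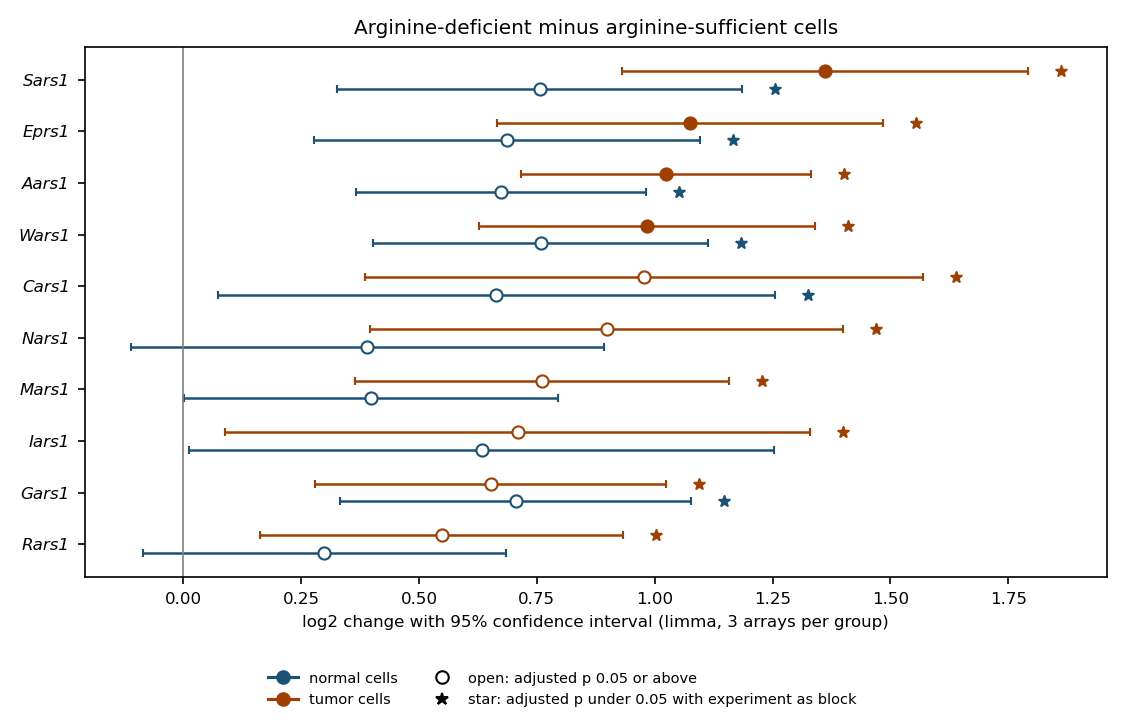
Log2 change of each gene from arginine-sufficient to arginine-deficient cells, with 95% confidence intervals from limma, in normal and tumor cells. Filled points passed the test and stars mark genes that passed with the experiment as a block. All 20 point estimates are above 0, with Sars1 highest and Rars1 lowest in tumor cells.

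The difference of response, the change in tumor cells minus that in normal cells, was above 0 for 9 of the 10 genes, with a median log2 value of 0.33 and a range of -0.05 (Gars1) to 0.61 (Sars1). By limma 0 genes passed the test of this difference, and 0 of the 10 had an unadjusted p under 0.05. The call rate over all genes was 0%, with 550 of all 9745 probe sets at an unadjusted p under 0.05. For Sars1 the difference was 0.61 ± 0.28, with a 95% confidence interval of -0.003 to 1.21 (limma adjusted p = 0.887). For Gars1 the interval ran from -0.58 to 0.47. These intervals do not show that the lines responded alike, and a larger response in tumor cells was not shown for any single gene. With the experiment as a block 0 genes passed as well, with the lowest unadjusted p for Sars1 (0.00872, limma adjusted p = 0.202) and Nars1 (0.0192, limma adjusted p = 0.266), the 2 leading probe sets with an unadjusted p under 0.05.

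By type of enzyme the medians were close. The 4 genes of the multi-synthetase complex had a median log2 change of 0.73 in tumor cells and 0.52 in normal cells, and the 6 outside it had 0.98 and 0.69. The ranges of the 2 kinds overlapped in both lines. By catalytic class, which rests on the fold of the active site, the median in tumor cells was 0.76 for the 5 class I genes (Cars1, Iars1, Mars1, Rars1 and Wars1) and 0.96 for the 4 class II genes (Aars1, Gars1, Nars1 and Sars1), with Eprs1, which holds both, left out. None of these splits was tested.

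The 10 genes showed 4 different orders of the 4 group means. Tumor arginine-deficient cells had the highest mean log2 signal for 9 of 10 genes, with Eprs1 the exception, and both arginine-deficient means lay above both arginine-sufficient means for 8 of 10. The lowest mean was that of normal arginine-sufficient cells for 5 genes and of tumor arginine-sufficient cells for the other 5. For Cars1 and Gars1 instead, the tumor arginine-sufficient mean lay above the normal arginine-deficient one, by arrays that did not overlap for Cars1 and did for Gars1. The highest group stood apart from the next one for Aars1, Cars1, Gars1, Mars1 and Wars1, and overlapped with it for Sars1, Nars1, Iars1, Eprs1 and Rars1. The lowest 2 groups overlapped for 8 of the 10 genes, all but Gars1 and Eprs1. The shares of all genes with these orders and overlaps were not computed. These counts therefore describe the 10 genes and do not set them apart from other genes.

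The lines themselves differed for some members. With arginine, Cars1 was 2.4-fold higher in tumor than in normal cells (log2 difference 1.26 ± 0.28, limma adjusted p = 0.00305) and Gars1 was 1.69-fold higher (0.76 ± 0.17, limma adjusted p = 0.00425). Eprs1 was lower in tumor cells, with a log2 difference of -0.69 ± 0.19 (limma adjusted p = 0.0131). The other 7 genes did not pass, with log2 differences of -0.29 to 0.33. These 2 genes of 10 higher and 1 lower stand beside 17.3% of all genes called higher and 17.2% called lower in tumor cells, so the shares are near the background. Eprs1 lost its call without the normal arginine-sufficient array of experiment 2 (limma adjusted p = 0.0577) and without the tumor arginine-sufficient array of experiment 3 (0.0608). Without the first of these Mars1 passed (log2 difference 0.55, limma adjusted p = 0.0222).

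Without arginine, Cars1 was 2.99-fold higher in tumor cells (log2 difference 1.58 ± 0.28, limma adjusted p = 0.000534), Gars1 1.63-fold (0.70 ± 0.17, 0.00566), Mars1 1.61-fold (0.69 ± 0.18, 0.00911) and Wars1 1.39-fold (0.47 ± 0.17, 0.0352). This is 4 of 10 genes higher and 0 lower, where 20.8% of all genes were called higher and 19.7% lower. The other Cars1 probe sets also passed, with log2 differences of 0.71 and 1.07 with arginine and 1.26 and 1.65 without. Wars1 lost its call without any 1 of 5 arrays, the normal arginine-deficient arrays of experiments 2 and 3 or any tumor arginine-deficient array, with limma adjusted p-values of 0.0571 to 0.0936. For these differences the scan day and the chip lot cannot be told apart from the cell line. Both comparisons use arrays that also enter the arginine comparisons, so their values are given side by side and not correlated.

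**Figure D3:**
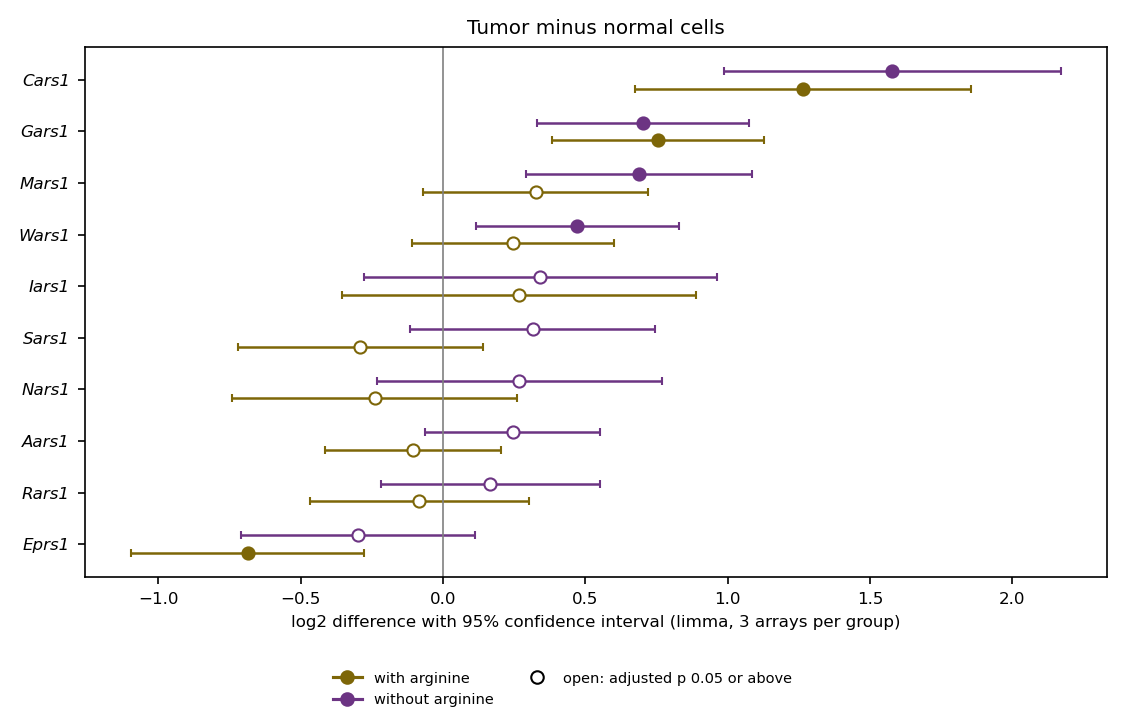
Log2 difference of each gene between tumor and normal cells, with 95% confidence intervals from limma, with and without arginine. Filled points passed the test: Cars1 and Gars1 lie above 0 in both media, Mars1 and Wars1 above 0 without arginine, and Eprs1 below 0 with arginine.

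The rest of the charging machinery gave a mixed picture. Of 11 other cytosolic synthetase genes 10 were tested, with a median log2 change of 0.34 in tumor cells and 0.06 in normal cells. The members described above were chosen with earlier results of these data known, so a gap between their medians and these is no separate result. In tumor cells Lars1, for the leucyl-tRNA synthetase of the same complex, rose by 0.88 ± 0.18 (limma adjusted p = 0.0266) and Yars1, for the tyrosyl-tRNA synthetase, by 1.13 ± 0.22 (limma adjusted p = 0.0208), and 0 fell. With the block Vars1 and Tars1 passed in tumor cells too, and Yars1 in normal cells. Hars1, for the histidyl-tRNA synthetase, had negative log2 changes of -0.47 in tumor and -0.48 in normal cells, which did not pass (limma adjusted p = 0.278 and 0.461). Qars1 and Kars1, also of the complex, had 0.10 and 0.37 in tumor cells and did not pass either.

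Of the 3 scaffold proteins that hold the complex together, Aimp1 rose in tumor cells by 0.89 ± 0.17 (limma adjusted p = 0.0221), and Aimp2 and Eef1e1 had log2 changes of 0.62 and 0.33 that did not pass (Aimp2 did with the block, limma adjusted p = 0.0142). None of the 3 passed in normal cells, where their values were 0.12 to 0.38. Of 17 mitochondrial synthetase genes 5 were on the array and 4 were tested, and 0 passed in either line with or without the block. Their median was 0.38 in tumor cells, with a range of -0.395 (Vars2) to 0.73 (Fars2), and 0.06 in normal cells. Fars2, Hars2 and Vars2 had group mean signals of 79.1 to 249, around the filter's threshold of 146 to 191. Their standard errors were 0.30 to 0.39, so the lack of calls does not show that they did not respond.

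Of 15 listed genes of the GCN2 and ATF4 pathway 14 were tested. Whether uncharged tRNA was behind their changes was not tested. In tumor cells 7 rose and 0 fell, namely Atf4, Atf3, Atf5, Trib3, Asns, Chac1 and Ppp1r15a, with a list median of 1.12. The call of Atf3 (3.69 ± 0.87, limma adjusted p = 0.0488) starts from a low signal. Its mean in tumor cells was 26.5 with arginine and 293 without it, where the threshold of the filter was 146 to 191. In normal cells 2 rose, Trib3 by 2.22 ± 0.26 (limma adjusted p = 0.00371) and Chac1 by 1.38 ± 0.23 (0.035), with a list median of 0.93. With the block 11 rose in tumor cells and 8 in normal cells, and 0 fell. Atf4, the transcription factor itself, had a log2 change of 0.92 ± 0.17 in tumor cells (limma adjusted p = 0.0168) and 0.61 ± 0.17 in normal cells (0.264, 0.0318 with the block), which is near the medians of the 10 synthetases. Trib3, a pseudokinase that restrains ATF4, was at 3.07 ± 0.26 in tumor cells (limma adjusted p = 0.000103). Asns, the asparagine synthetase gene, was at 1.44 ± 0.28 in tumor cells (limma adjusted p = 0.0228). Eif2ak4, the kinase GCN2, had log2 changes of -0.01 in tumor and -0.07 in normal cells, and Gcn1, its activator, had -0.09 and -0.25, none of which passed.

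**Figure D4:**
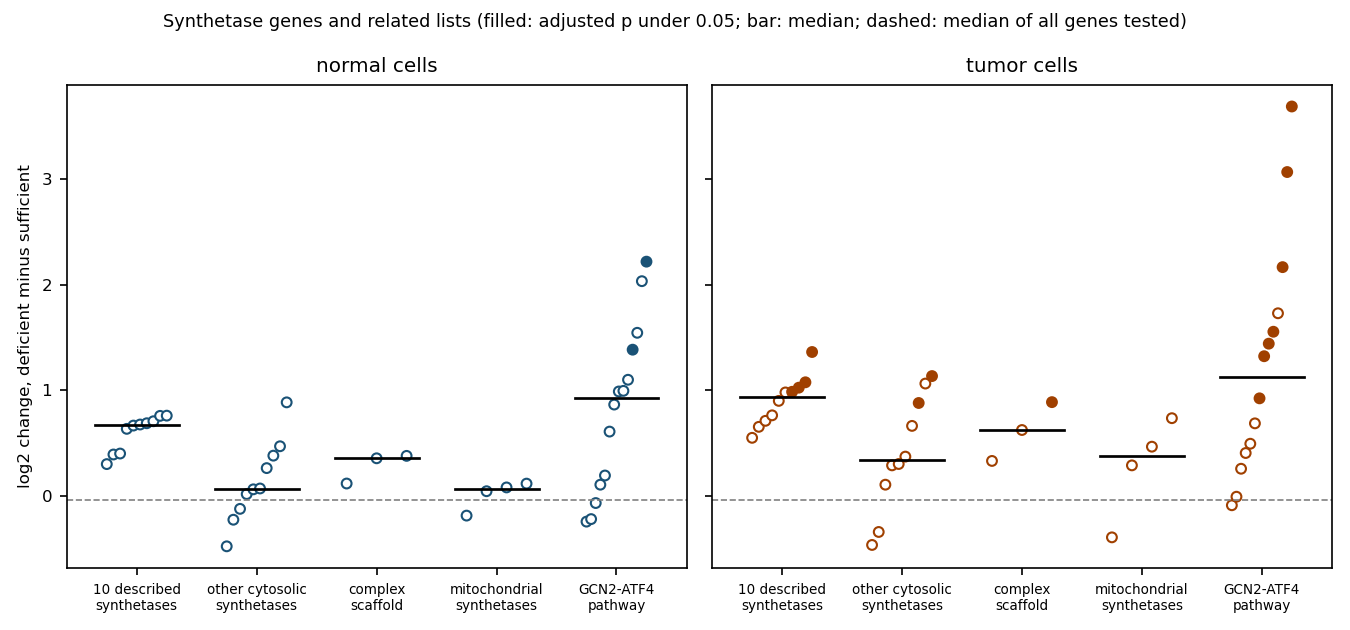
Log2 change from arginine-sufficient to arginine-deficient cells for the 10 synthetase genes and for the comparison lists, 1 point per gene, in normal (left) and tumor cells (right). Filled points passed the test, bars are list medians and the dashed line is the median of all genes tested. The 10 genes have medians of 0.67 and 0.94, the other cytosolic synthetases 0.06 and 0.34. Members and lists were chosen with earlier results of these data known, and the gap was not tested.

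The members followed each other closely across arrays. With the mean of its cell line taken from each log2 signal, the 45 pairs of genes had Pearson correlations of 0.55 to 0.97 over the 12 arrays, with a median of 0.82. Each gene's correlation with the mean of the other 9 was lowest for Iars1 (0.75) and highest for Mars1 (0.95). These points share arrays and scaling, and include the difference between the media. Pairs of other genes were not correlated in this way, so such values are not shown to be particular to the members. Outside the lists, the 5 genes most like the mean of the members were Mthfd2 (0.972), an enzyme of mitochondrial folate metabolism, Phgdh (0.972), the first enzyme of serine synthesis, Rhob (0.966), a small GTPase, Eif1ad (0.958) and Wdr5 (0.957), a subunit of histone methyltransferase complexes. Of these Mthfd2 rose by 1.5 ± 0.18 in tumor cells (limma adjusted p = 0.00162) and 1.34 ± 0.18 in normal cells (0.011). Phgdh, Rhob and Eif1ad passed in tumor cells, with log2 changes of 1.69, 0.84 and 0.91, and Wdr5 had 0.37 there, which did not pass (limma adjusted p = 0.205). These 5 genes were picked on the same arrays for likeness to members that rose without arginine. Their own calls are therefore partly fixed by that choice and are no separate support.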

How the data were processed

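Members and lists were chosen with earlier results of these data known. RNA of 12 cultures, 3 per group, was hybridised to RAE230A arrays. The deposited values are intensities, which the authors made with Microarray Suite 5.0 from pairs of matched and mismatched probes, with each array scaled to the same mean, so a uniform shift in RNA would not be seen. The number of arrays limits the precision. Before log2 was taken, 1 was the lowest signal allowed. Probe sets among the highest 54% of an array in at least 3 of 12 arrays were tested, without 57 controls. limma 3.58.1 (R 4.3.3) fitted 1 mean per group with an intensity trend, and Benjamini-Hochberg adjustment covered 9745 probe sets at 0.05. Symbols are those of the array annotation. One promoter sequence is not reported here.

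The methods describe pair-wise experiments. Both cultures of a pair shared a scan day in 5 of 6 pairs and a chip lot in 3. The run records gave consecutive RNA codes in 6 of 6 pairs, and 10 of 10 records that state arginine matched the labels. They state trypsin for tumor experiments 1 and 3 and no trypsin for tumor experiment 2, and do not mention it for normal cells. The part of this difference in handling was not tested. With group means removed, partners correlated at 0.43, 0.42 and 0.38 in normal cells and at 0.56, 0.04 and 0.42 in tumor cells. The experiment was used as a block in an alternative.

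Other alternatives were the filter (none, or the highest 40%), raising low signals to the 46th percentile, adding an offset of 16, quantile normalization, median centring, no trend, scan day or chip lot as a block, 1 line or 1 medium alone, averaging the probe sets of a gene, other numbers of ratios, and leaving out each array. Named genes are the 10 members, list genes that passed in an arginine comparison or that a count of 5 or fewer needs, and the 5 genes outside the lists that correlate most with the members. Eif2ak4, Gcn1, Hars1, Qars1, Kars1, Aimp2, Eef1e1, Fars2, Hars2 and Vars2 are named outside this rule, after their values were seen. Python 3.11.15 with pandas 2.3.3, numpy 2.4.6 and matplotlib 3.10.9 was used for tables and figures.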

Additional observations from a re-analysis of the deposited data

How the results depend on the processing

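In both arginine comparisons the 10 log2 changes stayed above 0 under all 30 alternatives. The number of genes called moved more. In normal cells it was 0, and became 6 with the experiment as a replicate block, 1 with the scan day as a block and 0 to 1 when an array was left out. In tumor cells it was 4, and became 10 with the replicate block, 8 with the scan day as a block and 2 to 7 when an array was left out. It was 5 with the filter at the highest 40%, with low signals raised to the 46th percentile or with the offset of 16. With median centring, the chip lot as a block, 1 line alone or averaged probe sets it was 6. It stayed at 4 without the filter, with quantile normalization or without the trend. With the replicate block and 1 experiment of a line left out, in fits chosen after seeing the data, the count was 0, 6 and 1 in normal cells without normal experiments 1, 2 and 3, and 5, 4 and 5 without tumor experiments 1, 2 and 3. In tumor cells it was 10, 9 and 10, and 7, 7 and 8, respectively. The 2-fold rule was met by 1 member probe set in tumor cells, by 0 when 9 of 9 ratios were required and by 5 at 5 of 9. Among the alternatives, the share of all genes called was computed only for the replicate block with every experiment kept. The counts under the other fits have no such share beside them. The cause of these shifts was not tested.

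Some differences of response changed sign. Iars1, at 0.076 in the fit with 1 mean per group, was at -0.061 with the scan day and -0.15 with the chip lot as a block. Cars1, at 0.31 in the fit with 1 mean per group, was at -0.047 with the chip lot. With the replicate block and an experiment left out, Gars1 was at 0.046 and 0.007 (normal experiments 1 and 3) and 0.04 (tumor experiment 3), and Iars1 at -0.27 (normal 1) and -0.009 (tumor 1 and 2). When an array was left out, the difference of response was -0.047 to 0.63 for Cars1, -0.26 to 0.083 for Gars1 and -0.15 to 0.46 for Iars1. The tumor minus normal difference with arginine was then -0.28 to 0.032 for Rars1, -0.11 to 0.49 for Iars1 and -0.058 to 0.19 for the median of the members. Wars1 without arginine was not called after quantile normalization (limma adjusted p = 0.0615) or with 1 medium alone (0.0614). With 3 arrays per group, the standard errors of the 10 genes were 0.14 to 0.29 on the log2 scale, which limits the changes that could be called.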
